A study of Mus musculus with 18 samples.

Results

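A set of 10 genes known from natural killer (NK) cells and effector T cells were examined in T cells that had been given small extracellular vesicles (sEVs) from leukemic or healthy spleens. They were chosen by name, with earlier results of these data known. Each was represented by 1 of the 22206 probe sets on the array, which carries 19505 genes with a symbol. Klrd1, Klrk1, Klrc1 and Klrg1 encode lectin-like receptors, Nkg7, Ctsw and Cst7 encode proteins of cytotoxic cells, and Ccl5, Ccl4 and Xcl1 encode secreted chemokines. The RNA of 18 samples, in 6 groups of 3, was hybridized to mouse Clariom S arrays, 1 for each sample. CD8+ T cells, Foxp3-expressing regulatory T cells (Treg) and conventional CD4+ T cells (CD4+ Tconv) were sorted from spleens of the Foxp3 YFP/cre strain, in which a fluorescent protein marks Foxp3 expression, and each subset was cultured for 24 h with IL2 at 10 ng/ml. The cultures received LME-sEVs, taken from spleens of TCL1 mice in which a human transgene driven in B cells produces a disease like chronic lymphocytic leukemia, or HCME-sEVs from spleens of healthy controls. The labels give 50 ug/ml of sEVs throughout, whereas in the methods the amount followed what each type of spleen contained, so that vesicle source and dose cannot be told apart. LME-sEVs were compared with HCME-sEVs in each subset to ask what the leukemic vesicles altered. The labels give no age for the cell donors, and the methods state only a general range for young adult mice. Nothing says that the 3 arrays of a group came from separate animals or cultures, so the spread behind each p-value is that between these samples and may be technical.

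Receptors of this family sit on NK cells and on CD8+ T cells that have met antigen. CD94, the product of Klrd1, pairs with NKG2A, the product of Klrc1, to read the non-classical class I molecule Qa-1 and restrain killing, while NKG2D, the product of Klrk1, binds stress-induced ligands and activates through the adaptor DAP10. The granule proteins serve or accompany the release of perforin and granzymes, and the chemokines draw in other immune cells, Xcl1 by way of the cross-presenting dendritic cells that carry its receptor. Klrd1, Klrk1 and Klrc1 are neighbours in the NK gene complex of chromosome 6, and Ccl5 and Ccl4 lie in 1 chemokine cluster of chromosome 11.

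Promoter windows from RefSeq (assembly GRCm38.p6), which run from 250 bases before to 50 bases after a start site, matched 5 of the 10 genes, namely Klrk1, Klrc1, Nkg7, Cst7 and Xcl1. A window is printed for Nkg7 and Xcl1, which were lower on every LME array of CD8+ T cells than on every HCME array, and for Cst7, which stayed well above background in Treg. Capitals mark matches, on either strand, to the RUNX core TGTGGT, to the T-box half-site GGTGTGA or to the STAT pattern TTCNNNGAA. They are motifs of factor families at work in cytotoxic lymphocytes, and the first 2 can share letters but do not do so here.
Nkg7, chr7:43436888-43437187, plus strand: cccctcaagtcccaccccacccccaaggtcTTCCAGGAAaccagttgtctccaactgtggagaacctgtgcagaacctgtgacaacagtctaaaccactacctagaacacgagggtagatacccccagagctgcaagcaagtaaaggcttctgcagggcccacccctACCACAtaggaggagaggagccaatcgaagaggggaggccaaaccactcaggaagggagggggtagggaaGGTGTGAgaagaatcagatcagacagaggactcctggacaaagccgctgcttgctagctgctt
Xcl1, chr1:164935473-164935772, minus strand: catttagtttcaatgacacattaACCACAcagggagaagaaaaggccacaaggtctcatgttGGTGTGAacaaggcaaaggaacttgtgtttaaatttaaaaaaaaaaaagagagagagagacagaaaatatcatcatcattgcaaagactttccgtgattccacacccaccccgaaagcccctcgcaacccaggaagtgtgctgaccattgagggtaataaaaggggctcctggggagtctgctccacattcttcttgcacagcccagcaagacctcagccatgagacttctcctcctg
Cst7, chr2:150570165-150570464, plus strand: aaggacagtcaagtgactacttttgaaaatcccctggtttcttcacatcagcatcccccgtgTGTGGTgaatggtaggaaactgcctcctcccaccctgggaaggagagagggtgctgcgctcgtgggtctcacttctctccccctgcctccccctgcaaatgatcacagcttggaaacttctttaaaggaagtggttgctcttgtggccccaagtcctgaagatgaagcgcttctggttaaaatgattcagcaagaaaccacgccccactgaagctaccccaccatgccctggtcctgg
The RUNX core was present in all 5 windows and in 16.8% of 32851 windows of the same length. Of the 5, Nkg7 and Xcl1 held the T-box half-site, which 3.98% of all windows did, beginning 13 and 188 bases before the start site. Nkg7 alone held the STAT pattern, present in 8.3% of all windows. A match describes letters in a window and is not evidence of binding.

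The values are log2 signals as the authors deposited them. Signals of 1429 probe sets for olfactory, vomeronasal and trace amine receptors, which T cells do not use, gave a background line at their 95th percentile, which stood lowest in Treg, at 7.62, then at 8.08 in CD8+ T cells and highest in CD4+ Tconv, at 8.80. A gene was taken as above background in a subset where its mean over the 6 arrays exceeded that line. The distance from the receptor probe sets of an array (95th percentile) to its upper decile was 0.734 to 1.15 on the LME arrays of CD4+ Tconv, against 1.544 to 1.976 on their HCME arrays, so the CD4+ comparison was made between arrays of unequal range. In CD4+ Tconv, LME minus HCME had a median of -0.31 over the probe sets above background and of 0.07 over all probe sets. By the numbers in the sample titles, the CD4+ Tconv arrays form a run of their own, with all HCME arrays before the LME arrays. What these numbers stand for is not stated, so treatment and numbering cannot be told apart in this subset. Among the Treg arrays, HCME array 3 was the least like the rest (mean r = 0.926 to the other 5) and carried Il2rb, an IL2 receptor chain, at 5.20 against 10.09 to 11.55 on the other 5. Cd8a and Cd8b1 were highest in CD8+ T cells on every array. Cd8b1 was also above the line on every array of the other subsets. It had 8.83 to 9.71 in CD4+ Tconv and 9.23 to 11.11 in Treg, against 17.02 to 17.27 in CD8+ T cells. Cd8a was below the line in CD4+ Tconv and, apart from LME array 2 at 8.01, in Treg. What this adds to the levels of the 10 genes there was not tested. Cd4 was above the line on all arrays of CD4+ Tconv and Treg and also, with 8.29 to 8.84, on the CD8+ arrays. Foxp3 is not analysed here, and all 6 other Treg markers measured were above background in Treg, with a mean level of 11.19 to 11.23 after LME-sEVs and 9.49 to 10.82 after HCME-sEVs.

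LME-sEVs produced no change past the thresholds in any of the 10 genes. By limma, where a call needed an adjusted p under 0.05 together with a log2 difference over 1 in either direction, 0 of 10 were called in CD4+ Tconv, where 1.01% of all probe sets were, and 0 of 10 in CD8+ T cells and in Treg, where the share over all probe sets was 0% in each. At an unadjusted p below 0.05 there were 3 in CD4+ Tconv (18.8% of all probe sets), 2 in CD8+ T cells (4.22%) and 0 in Treg (6.12%). The methods' t-test, unpaired and with equal variances, gave 2, 1 and 0 at the unadjusted threshold (13.6%, 4.13% and 5.56% of all probe sets) and 0 in each subset after Benjamini-Hochberg adjustment. Counted by arrays, 3 genes had LME and HCME groups that did not overlap in CD4+ Tconv (23.4% of all probe sets), 2 in CD8+ T cells (8.59%) and 1 in Treg (12.2%). The median LME minus HCME over the 10 genes was -0.20, -0.10 and 0.05 in CD4+ Tconv, CD8+ T cells and Treg, beside 0.07, -0.00 and -0.06 over all probe sets. The pair counted in CD8+ T cells was Nkg7 and Xcl1 by either measure.

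**Figure D1:**
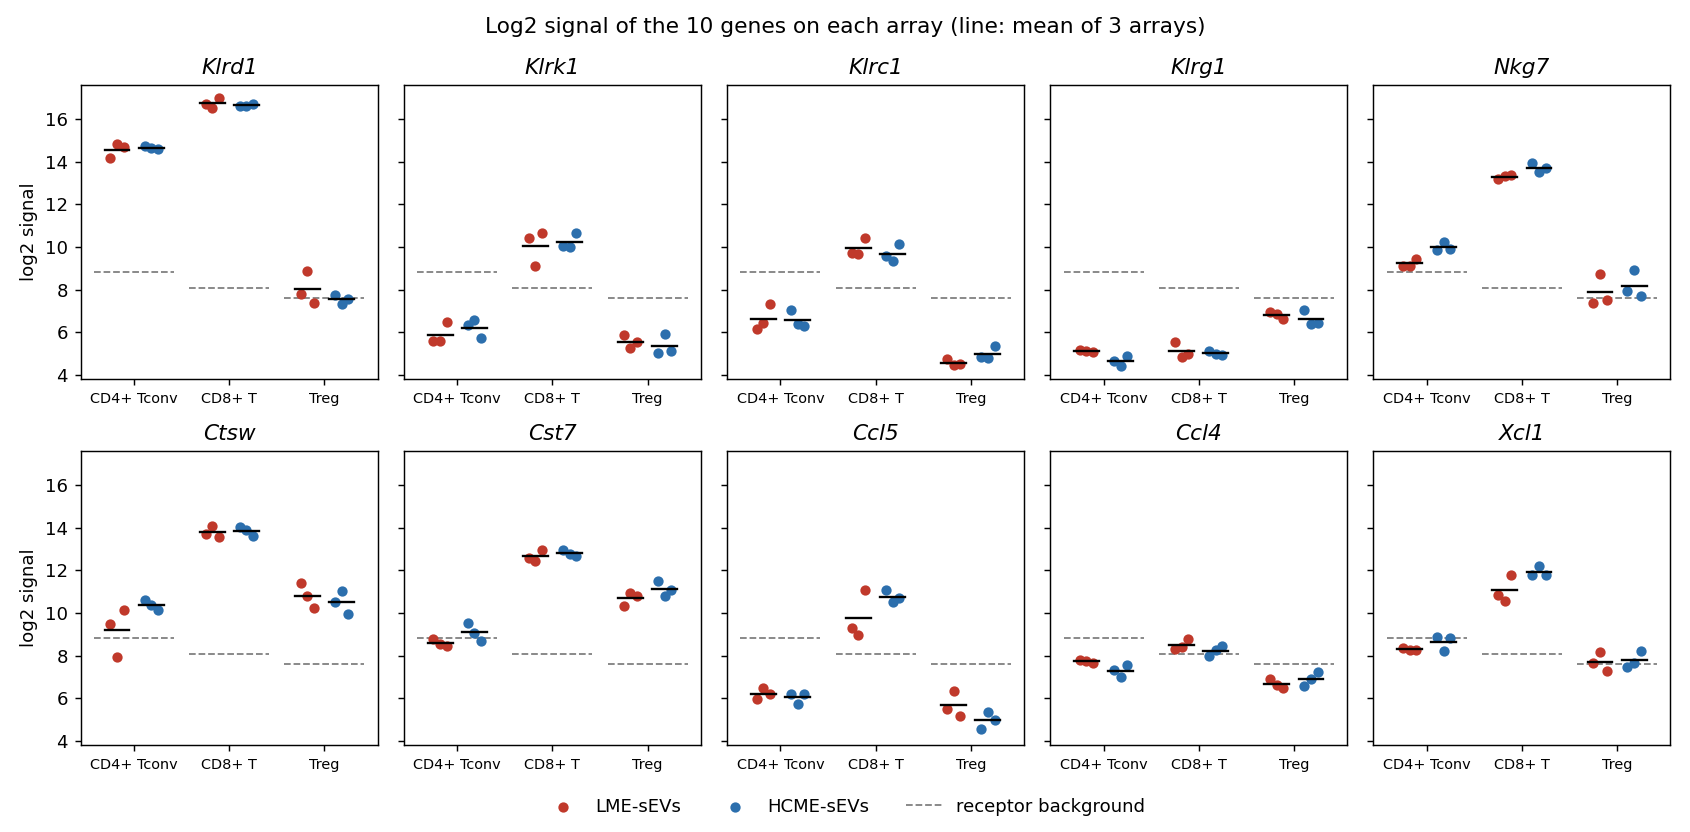
Log2 signal (vertical axis) of each gene on each of the 18 arrays, by subset, with LME-sEVs (red) left of HCME-sEVs (blue), the group mean as a line and the background line of each subset dashed. Most genes sit highest in CD8+ T cells under both kinds of sEVs, and the red and blue points differ far less than the subsets do.

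In CD8+ T cells, 9 of the 10 genes were above background and Klrg1 was not. Nkg7, a membrane protein of cytotoxic granules needed for their release, had log2 signals of 13.22, 13.32 and 13.37 on the LME arrays and 13.93, 13.54 and 13.73 on the HCME arrays. All 3 LME arrays were below all 3 HCME arrays, and the gap between the nearest was narrow. The means were 13.30 ± 0.08 and 13.73 ± 0.20 (SD, n = 3 each), a log2 difference of -0.43 (SE 0.17, adjusted p = 0.998). The 95% interval ran from -0.84 to -0.02.

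Xcl1, the chemokine for XCR1+ dendritic cells, stood at 10.83, 10.58 and 11.77 on these cells' LME arrays, against 11.78, 12.22 and 11.79 on the HCME arrays. The groups did not overlap, though LME array 3 came within 0.01 of the lowest HCME array. The difference was -0.87 (SE 0.33, 95% interval -1.67 to -0.07, adjusted p = 0.998), and without LME array 3 it was -1.23 (adjusted p = 0.59). Ccl5, which encodes RANTES, a chemokine stored by memory CD8+ T cells, had 9.27, 8.98 and 11.08 on the LME arrays and 11.08, 10.50 and 10.68 on the HCME arrays. LME arrays 1 and 2 were more than a log2 unit below every HCME array, while LME array 3 equalled the highest of them, so the groups overlapped. The difference of -0.98 (SE 0.54, 95% interval -2.28 to 0.32, adjusted p = 0.998) thus rested on 2 of 3 arrays, and it was -1.63 without LME array 3 (adjusted p = 0.542) and -0.58 without LME array 2 (adjusted p = 0.99).

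The third chemokine, Ccl4, which encodes MIP-1β, was close to background in CD8+ T cells, with 8.30, 8.41 and 8.76 on the LME arrays and 7.98, 8.25 and 8.44 on the HCME arrays. The groups overlapped, and the difference of 0.27 (SE 0.21) had the opposite sign to those of Ccl5 and Xcl1. Across the 10 genes, LME array 3 held the highest LME value for 8, and it also held it for 33.1% of all probe sets above background in CD8+ T cells. This was seen after the values were known and was not tested.

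Among the receptors of CD8+ T cells, Klrd1 had 16.72, 16.55 and 16.99 on the LME arrays and 16.65, 16.64 and 16.70 on the HCME arrays, a difference of 0.09 (SE 0.17, 95% interval -0.33 to 0.51). Klrk1 had 10.41, 9.09 and 10.67, against 10.06, 10.02 and 10.68, and LME array 2 was the lowest of all 6. Klrc1 lay at 9.73, 9.66 and 10.44, against 9.59, 9.35 and 10.14, a difference of 0.25 (SE 0.30). For all 3 receptors the groups overlapped, with adjusted p = 0.998 for each. Klrg1, an inhibitory receptor for cadherins on terminally differentiated effector cells, was below background on every array of CD8+ T cells, at 4.83 to 5.55 after LME-sEVs and 4.94 to 5.10 after HCME-sEVs. The cysteine protease Ctsw differed by -0.07 (SE 0.21) from a mean of 13.85 ± 0.21 in the HCME group, and Cst7, the inhibitor cystatin F that restrains granule cathepsins, by -0.13 (SE 0.20) from 12.80 ± 0.16.

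**Figure D2:**
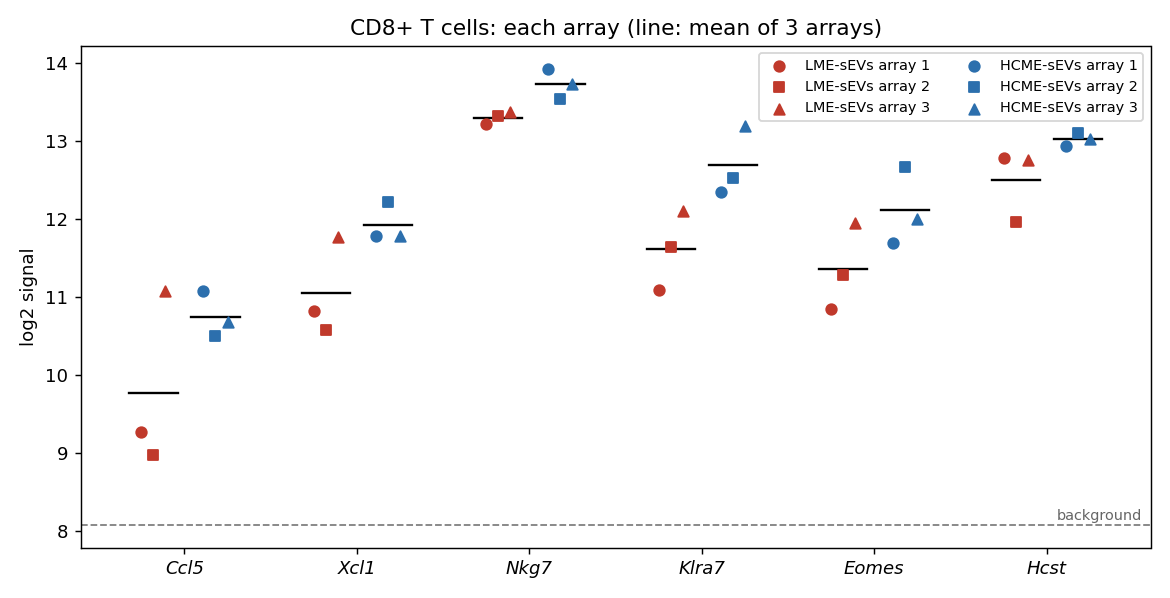
Log2 signal (vertical axis) of Ccl5, Xcl1, Nkg7 and the related genes Klra7, Eomes and Hcst on each array of CD8+ T cells, LME-sEVs in red left of HCME-sEVs in blue, with a marker shape for each array number and the group mean as a line. LME array 3 (triangle) lies well above LME arrays 1 and 2 for Ccl5 and Xcl1, at 11.08 and 11.77.

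Of 10 NK and innate-like lymphocyte markers measured, 4 were above background in the CD8+ arrays. Klre1 averaged 9.90 and 9.81, the Fc receptor gene Fcgr3 9.05 and 9.83, and Il2rb 8.57 and 9.85 after LME- and HCME-sEVs, and the fourth was Eomes, which like Il2rb is also used by memory CD8+ T cells. The mean level of the 10 ran from 7.757 to 8.186 over the LME arrays and from 8.106 to 8.529 over the HCME arrays, and the part of this in the values of Nkg7, Xcl1 and Ccl5 was not tested. Tyrobp, the adaptor of many NK receptors, lay at 5.90 to 6.15 after LME-sEVs and 6.01 to 6.33 after HCME-sEVs, below background throughout. The activating receptor Ncr1 had means of 7.35 and 6.84 and Klrb1c, which encodes NK1.1, of 6.89 and 7.29 after LME- and HCME-sEVs, all below background. In bulk samples like these, fewer cells of a type and less RNA per cell cannot be told apart.

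In CD4+ Tconv, 4 of the 10 genes were above background, namely Klrd1, Nkg7, Ctsw and Cst7. Nkg7 had 9.12, 9.10 and 9.46 on the LME arrays, against 9.87, 10.25 and 9.91 on the HCME arrays. The groups were apart by about as much as either one spread. Its difference of -0.78 (SE 0.21, 95% interval -1.24 to -0.33) had the lowest adjusted p of the 10 genes, 0.0912, and ranked 717 of 22206 by p. Set against the shift of bright probe sets on these arrays, it was -0.49 (adjusted p = 0.13) once arrays were centred on their median above background, which moved the median over all probe sets to 0.36, and cyclic loess gave -0.53 and quantile normalization -0.59.

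Ctsw had 9.47, 7.92 and 10.15 on the LME arrays of CD4+ Tconv and 10.63, 10.39 and 10.13 on the HCME arrays. LME array 2 was the lowest by over a log2 unit, and LME array 3 reached the HCME values. The difference of -1.20 (SE 0.45, adjusted p = 0.186) became -0.57 without LME array 2 and -1.69 without LME array 3 (adjusted p = 0.218 and 0.0793). Cst7, at 8.78, 8.53 and 8.45 on the LME arrays and 9.51, 9.07 and 8.70 on the HCME arrays, lay across the background line of the subset. One LME array exceeded one HCME array, and the difference was -0.51 (SE 0.24, adjusted p = 0.277).

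Klrd1 was bright in CD4+ Tconv, with 14.20, 14.85 and 14.70 on the LME arrays and 14.74, 14.67 and 14.60 on the HCME arrays. The groups overlapped, and the sign of the small difference, -0.09 (SE 0.22), turned under quantile normalization (0.28), cyclic loess (0.31) and centring above background (0.20). Its partner Klrc1 was below background on all 6 arrays, at 6.16 to 7.30 and 6.29 to 7.04 after LME- and HCME-sEVs. The same was true of Klrk1 and Ccl5. Klrg1 (5.07 to 5.18 after LME-sEVs, 4.41 to 4.88 after HCME-sEVs) and Ccl4 (7.64 to 7.79, 6.97 to 7.56) were the other members without overlap, higher on the LME arrays and likewise below background, where receptor probe sets as a group had a median difference of 0.32. Xcl1 had 8.28 to 8.37 after LME-sEVs and 8.21 to 8.86 after HCME-sEVs, at the background line or under it.

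In Treg, 5 genes were above background by their mean (Klrd1, Nkg7, Ctsw, Cst7 and Xcl1), of which Ctsw and Cst7 exceeded the line on every array. Ctsw had 11.42, 10.82 and 10.22 on the LME arrays and 10.52, 11.05 and 9.97 on the HCME arrays, a difference of 0.31 (SE 0.40). Cst7 had 10.33, 10.92 and 10.79, against 11.50, 10.79 and 11.09, a difference of -0.45 (SE 0.28). Both pairs of groups overlapped. Nkg7 was at 7.35, 8.75 and 7.50 on the LME arrays and 7.93, 8.92 and 7.70 on the HCME arrays, where the spread within a group exceeded the difference of -0.32 (SE 0.48). Klrd1 was at 7.78, 8.86 and 7.37, against 7.74, 7.34 and 7.54, and its difference of 0.46 (SE 0.39) fell to 0.04 without LME array 2. That array also had the highest Cd8a and Cd8b1 in Treg, at 8.01 and 11.11, and a link was not tested. Klrc1 had groups that did not overlap, 4.45 to 4.73 after LME-sEVs and 4.76 to 5.33 after HCME-sEVs, far below background. Ccl5, also below background, was at 5.15 to 6.34 and 4.55 to 5.35. Xcl1 had 7.64, 8.17 and 7.29 on the LME arrays and 7.48, 7.65 and 8.22 on the HCME arrays, so that both groups straddled the line. Adjusted p ran from 0.813 to 0.967 over the 10 genes in Treg, and 0 were called without HCME array 3 as well.

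**Figure D3:**
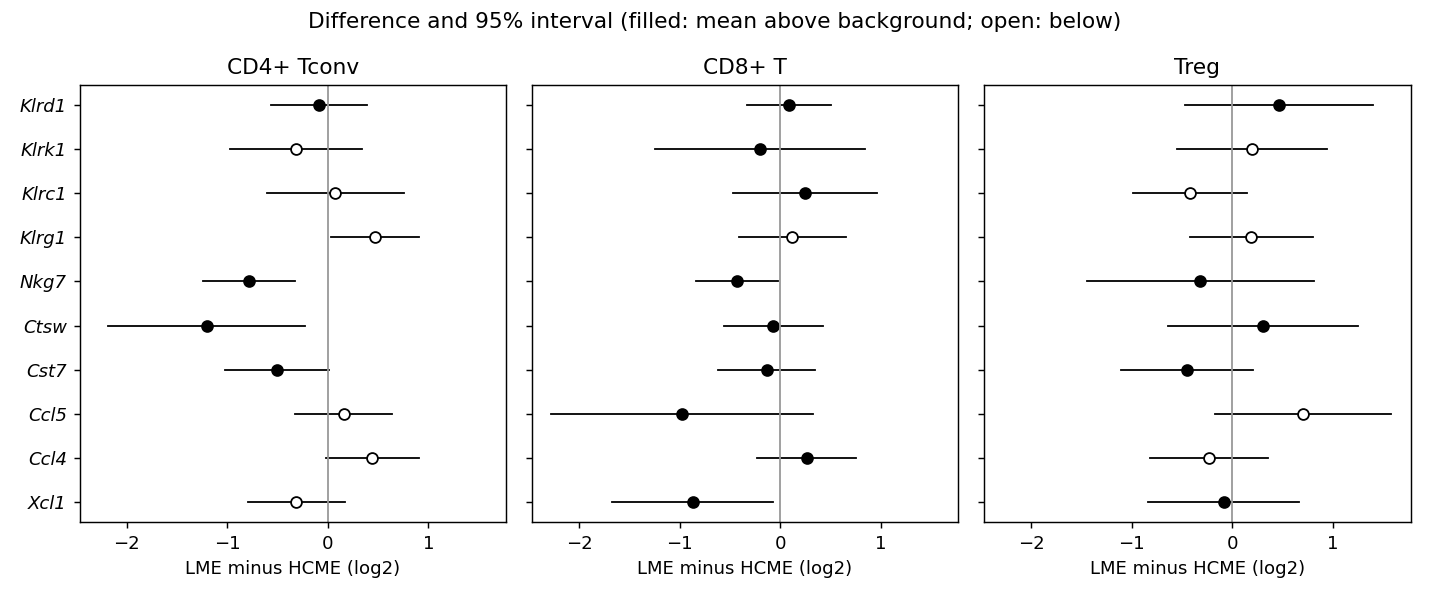
LME minus HCME in log2 signal (horizontal axis) with its 95% interval for each gene in CD4+ Tconv, CD8+ T cells and Treg, filled where the mean of the 6 arrays was above background. The intervals of Nkg7 in CD4+ Tconv and CD8+ T cells, of Ctsw and Klrg1 in CD4+ Tconv and of Xcl1 in CD8+ T cells do not reach 0, and no gene passed the adjusted threshold.

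The effects were also compared between subsets, as contrasts over all 18 arrays. By limma, 0 of the 10 genes differed at an adjusted p below 0.05 between Treg and CD8+ T cells (0.00901% of all probe sets did), between CD4+ Tconv and CD8+ T cells (0%) or between Treg and CD4+ Tconv (0.0135%). At an unadjusted p below 0.05 there were 1, 0 and 2, beside 7.54%, 6.94% and 15.3% of all probe sets. The 1 was Ccl5, with LME minus HCME of 0.70 in Treg, where it was below background, and -0.98 in CD8+ T cells, a difference of 1.68 (SE 0.62, adjusted p = 0.526). The 2 were Ctsw, at 0.31 in Treg and -1.20 in CD4+ Tconv (difference 1.51, SE 0.63, adjusted p = 0.275), and Ccl4, below background in both. Nkg7 had a negative difference in all 3 subsets, at -0.78, -0.43 and -0.32 in CD4+ Tconv, CD8+ T cells and Treg. In Treg it was 0.05 without HCME array 2. In CD4+ Tconv the median over all probe sets above background was -0.31. The differences of Nkg7 did not differ past the threshold from each other, with an interval of -1.36 to 0.65 for CD4+ Tconv against CD8+ T cells.

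The subsets differed far more than the treatments. The levels are set side by side on arrays for which it is not known whether all were normalized together, and the background lines of the subsets differ, so each comparison is given with its distance from background. The CD4+ Tconv arrays are also numbered apart from the CD8+ and Treg arrays in the sample titles. In comparisons with CD4+ Tconv, subset and numbering thus cannot be told apart. After HCME-sEVs and by the same thresholds, 8 of 10 genes were called between CD8+ T cells and CD4+ Tconv (24% of all probe sets), all 8 higher in CD8+ T cells. Between Treg and CD4+ Tconv 6 were called (28.4%), and between Treg and CD8+ T cells all 10 (23.9%). Both subsets were below background for Klrg1 in each pair and for Klrc1 and Ccl5 between Treg and CD4+ Tconv, so these calls are not read for direction here. Of the 10 between Treg and CD8+ T cells, 9 were lower in Treg.

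Klrd1 had the widest range. Its mean after HCME-sEVs was 16.66 ± 0.03 in CD8+ T cells, 14.67 ± 0.07 in CD4+ Tconv and 7.54 ± 0.20 in Treg, where it lay at the background line. All arrays of a subset were separate from those of the others, also after LME-sEVs, with means of 16.75 in CD8+ T cells and 14.58 in CD4+ Tconv and a highest Treg value of 8.86. The CD8 minus CD4 difference was 1.99 (SE 0.29, adjusted p = 8.92e-05), and Treg lay below CD4+ Tconv by at least 7.05 and below CD8+ T cells by at least 9.05 log2 units when the background line of Treg was taken in place of its own value. With arrays and background line centred above background, the CD8 minus CD4 difference was 0.91 and no longer past the fold threshold, and the bounds for Treg became 7.11 and 8.02.

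Klrk1, Klrc1 and Ccl5 were above background in CD8+ T cells alone among the 3 subsets. Klrk1 had 10.06, 10.02 and 10.68 on the HCME arrays of CD8+ T cells, against 6.33, 6.56 and 5.70 in CD4+ Tconv, and was at least 2.73-fold higher in CD8+ T cells when counted from the CD4+ background line. Ccl5 was at least 3.86-fold higher in CD8+ T cells than in CD4+ Tconv and at least 8.79-fold lower in Treg than in CD8+ T cells on the same reckoning, from a CD8+ mean of 10.75 ± 0.30. Klrc1 was at least 1.85-fold higher in CD8+ T cells than in CD4+ Tconv and at least 4.22-fold lower in Treg. By limma each of the 3 had an adjusted p of 4.08e-06 or less for CD8 minus CD4. The bounds depended on the scaling. With levels and lines centred above background they were 1.19-fold for Klrk1 and 1.69-fold for Ccl5 against CD4+ Tconv, with none left for Klrc1, while against Treg they were 4.32-fold for Ccl5 and 2.07-fold for Klrc1.

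Nkg7 followed the order CD8+ T cells, CD4+ Tconv, Treg, with means after HCME-sEVs of 13.73 ± 0.20, 10.01 ± 0.21 and 8.18 ± 0.65. Each step was called, at 3.72 (SE 0.34, adjusted p = 1.53e-06) for CD8 minus CD4 and -1.83 (SE 0.34, adjusted p = 0.000462) for Treg minus CD4. Xcl1 was highest in CD8+ T cells at 11.93 ± 0.25, while Treg at 7.78 ± 0.39 and CD4+ Tconv at 8.62 ± 0.36 lay at their background lines. Ccl4 was at 8.22 ± 0.23 in CD8+ T cells, scarcely above background, and below background in Treg and CD4+ Tconv.

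Ctsw and Cst7 kept to another order. Cst7 was higher in Treg than in CD4+ Tconv, with 11.50, 10.79 and 11.09 on the HCME arrays of Treg and 9.51, 9.07 and 8.70 on those of CD4+ Tconv. The groups did not overlap, and the difference was 2.03 (SE 0.25, adjusted p = 1.49e-05), or 2.05 without Treg HCME array 3. Ctsw did not differ past the threshold between Treg and CD4+ Tconv, at 10.51 ± 0.54 and 10.38 ± 0.25, with an interval of -0.81 to 1.07 for the difference. Both were lower in Treg than in CD8+ T cells, with differences of -3.34 (95% interval -4.28 to -2.40) for Ctsw and -1.67 (-2.19 to -1.15) for Cst7, although for Cst7 the call was lost after quantile normalization (-0.76) and centring above background (-0.58).

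**Figure D4:**
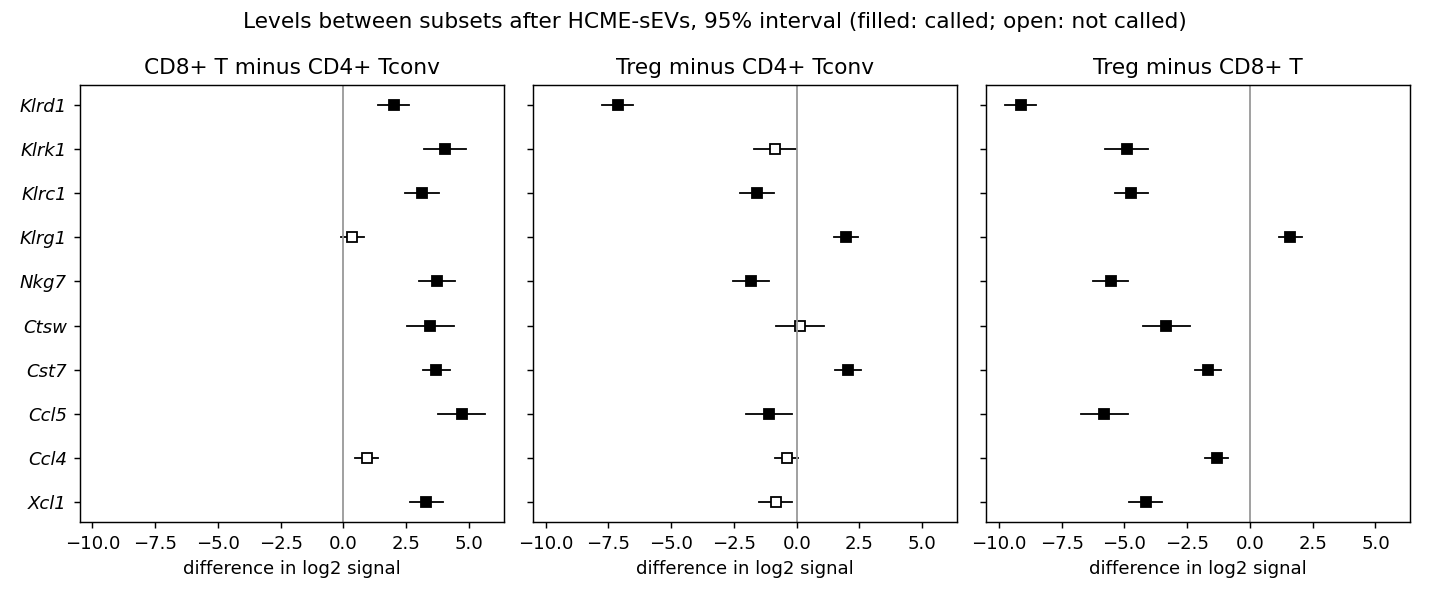
Difference in log2 signal between subsets after HCME-sEVs (horizontal axis) with its 95% interval, for CD8+ T cells minus CD4+ Tconv, Treg minus CD4+ Tconv and Treg minus CD8+ T cells, filled where called. Klrd1 is the farthest from 0 in both comparisons of Treg, where it was below background, so that only the bounds of 7.05 and 9.05 log2 units apply, and Cst7 at 2.03 is higher in Treg than in CD4+ Tconv. Squares of genes below background in both subsets (Klrg1 throughout, and Klrk1, Klrc1, Ccl5 and Ccl4 between Treg and CD4+ Tconv) are not read for direction. Where a gene was below background in 1 of the subsets, its square is a measured difference and not the size of the change.

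Over the 18 arrays, the named probe sets most like Xcl1 by Pearson's r were Clasrp (0.982), Eomes (0.982), Ccl5 (0.981), Chsy1 (0.977) and Klra7 (0.973). Those most like Ccl5 were Xcl1, Clasrp, Eomes, Myo9b and Tarbp1, with r from 0.964 to 0.981. Eomes, a T-box factor of CD8+ memory and NK cells, had means of 11.36 and 12.12 in CD8+ T cells after LME- and HCME-sEVs and was below background in the other subsets. Those most like Klrd1 were Rab24, Ifi213, Lratd2, Ifit1bl1 and Pcgf1, with r from 0.981 to 0.988, and Ifit1bl1 had means after HCME-sEVs of 13.76 in CD8+ T cells, 12.85 in CD4+ Tconv and 9.32 in Treg. The 18 points share 6 groups, and most of each correlation lies between the subsets.

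The genes that work with the members were taken from lists of partners. Of 25 other NK receptors and adaptors measured, 1 was above background in CD4+ Tconv, 5 in CD8+ T cells and 4 in Treg, and by limma 0 were called in any subset, with 4, 4 and 2 at an unadjusted p below 0.05 (18.8%, 4.22% and 6.12% of all probe sets). Hcst, which encodes DAP10, the adaptor of NKG2D, was the 1 in CD4+ Tconv, where Klrk1 itself was below background. It had 9.40, 10.59 and 10.37 on the LME arrays, against 11.39, 11.70 and 11.41 on the HCME arrays. All LME arrays were lower, by a difference of -1.38 (SE 0.29) that missed the threshold at an adjusted p of 0.0505. Of the arrays left out in turn, LME array 2 was the one without which it passed (-1.61, adjusted p = 0.0303). It also passed with array weights (adjusted p = 0.017) and among probe sets above background (0.0313), and after cyclic loess it was -0.97 (0.136). In CD8+ T cells Hcst was at 12.79, 11.96 and 12.76 on the LME arrays and 12.94, 13.10 and 13.03 on the HCME arrays, again without overlap (-0.52, SE 0.26, adjusted p = 0.998).

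Klra7, an inhibitory Ly49 receptor for class I molecules, had 11.09, 11.65 and 12.10 on the CD8+ LME arrays and 12.35, 12.53 and 13.20 on the HCME arrays. The groups did not overlap, and the difference was -1.08 (SE 0.33, adjusted p = 0.998). The Ly49 genes are related in sequence, so a probe set of one may read others. Of the 5 genes of this list above background in CD8+ T cells, 3 had a negative and 2 a positive difference, and of the 4 in Treg 1 was negative and 3 were positive. Lilrb4a, an inhibitory receptor, differed by 0.57 (SE 0.18) in CD8+ T cells, and Klre1, a receptor of the same gene complex, differed by -0.23 (SE 0.39) in Treg.

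Of 6 ligand genes measured, 0 were called by limma in CD4+ Tconv, CD8+ T cells and Treg (1.01%, 0% and 0% of all probe sets). At an unadjusted p below 0.05 there were 1, 1 and 0, beside 18.8%, 4.22% and 6.12% of all probe sets. H2-T23, which encodes Qa-1, the ligand of CD94 with NKG2A, had 10.15, 9.06 and 9.27 on the LME arrays of Treg and 8.42, 8.32 and 9.13 on the HCME arrays. One HCME array lay within the range of the LME arrays, and the difference was 0.87 (SE 0.37, adjusted p = 0.8). It was also higher in CD8+ T cells, without overlap, at 10.67 to 11.01 after LME-sEVs and 9.79 to 10.54 after HCME-sEVs (adjusted p = 0.998). The NKG2D ligands Ulbp1 and H60c differed in CD8+ T cells by -0.51 (SE 0.23) and -0.19 (SE 0.16).

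Of 11 chemokines and chemokine receptors of the same axes, 0 were called by limma in CD4+ Tconv, CD8+ T cells and Treg (1.01%, 0% and 0% of all probe sets). At an unadjusted p below 0.05 there were 1, 0 and 1, beside 18.8%, 4.22% and 6.12% of all probe sets. Ccl3, a close relative of Ccl4, ranged from 7.44 to 8.48 on the CD8+ LME arrays and from 7.50 to 10.35 on the HCME arrays, where array 2 alone was bright. Cxcr3, the receptor that guides effector T cells, differed by -0.37 (SE 0.26) and the chemokine Ccl6 by 0.48 (SE 0.22) in CD4+ Tconv.

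Of 20 genes for granule contents and release, 1 was called by limma in CD4+ Tconv (1.01% of all probe sets were) and 0 in CD8+ T cells and Treg. At an unadjusted p below 0.05 there were 4, 4 and 2 in CD4+ Tconv, CD8+ T cells and Treg, where the shares of all probe sets were 18.8%, 4.22% and 6.12%. The 1 was Lgmn, the lysosomal protease legumain, with 8.51, 8.82 and 9.30 on the LME arrays of CD4+ Tconv and 10.23, 10.84 and 10.03 on the HCME arrays. The groups did not overlap, and the gene fell by 1.49 on the log2 scale (SE 0.27, adjusted p = 0.0392). The call was lost without HCME array 1, HCME array 2 or LME array 1 (adjusted p = 0.228, 0.236 and 0.115) and after cyclic loess (-1.24, adjusted p = 0.0785), quantile normalization and centring above background. It held with array weights (adjusted p = 0.0173) and among probe sets above background (0.0259), and was lost with trend and robust options and with all arrays in one fit (0.0568 and 0.299). Srgn, the proteoglycan core of granules, had 12.39 to 12.65 on the LME arrays of CD4+ Tconv, against 13.29 to 13.77 on the HCME arrays. In Treg, Gzmb, the cytotoxic protease granzyme B, had 10.85, 10.74 and 10.92 on the LME arrays and 8.03, 8.76 and 8.66 on the HCME arrays. The groups were well apart, with a difference of 2.35 (SE 0.26) whose adjusted p was 0.431, and it was 2.44 without HCME array 3. Stxbp2, a vesicle fusion factor, spread from 6.99 to 10.18 on the LME arrays of Treg and from 9.58 to 11.31 on the HCME arrays. Ctsw and Cst7, which belong to the same granules, did not share the direction of Gzmb past their spread, and the difference between genes was not tested.

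Among 9 transcription factors of effector cells, 1 was called by limma in CD4+ Tconv (1.01% of all probe sets were) and 0 in CD8+ T cells and Treg. At an unadjusted p below 0.05 there were 4, 0 and 1, beside 18.8%, 4.22% and 6.12% of all probe sets. Id2, a partner of effector differentiation, had 12.06, 12.52 and 12.10 on the LME arrays of CD4+ Tconv and 13.59, 13.29 and 13.37 on the HCME arrays, and fell by 1.19 on the log2 scale (SE 0.21, adjusted p = 0.0374). Of the arrays left out in turn, its call held without LME array 2, and adjusted p was 0.0525 to 0.228 without any of the others. It passed with array weights (0.00973) and among probe sets above background (0.0259), missed with trend and robust options and all arrays in one fit (0.0573 and 0.209), and stood at -0.71 (adjusted p = 0.151) after cyclic loess and at -0.90 once centred above background. Lef1, a factor of naive T cells, was lower too, by a difference of -0.96 (SE 0.26) that missed the threshold at an adjusted p of 0.1. In Treg, Runx3 had 11.86, 8.52 and 10.01 on the LME arrays and 8.51, 8.63 and 5.50 on the HCME arrays, the last being the array least like the rest, and the difference of 2.58 (SE 1.08) was 1.56 without it. Bach2, a repressor of effector genes, had 9.23 to 10.49 and 8.42 to 9.52 in CD8+ T cells after LME- and HCME-sEVs.

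**Figure D5:**
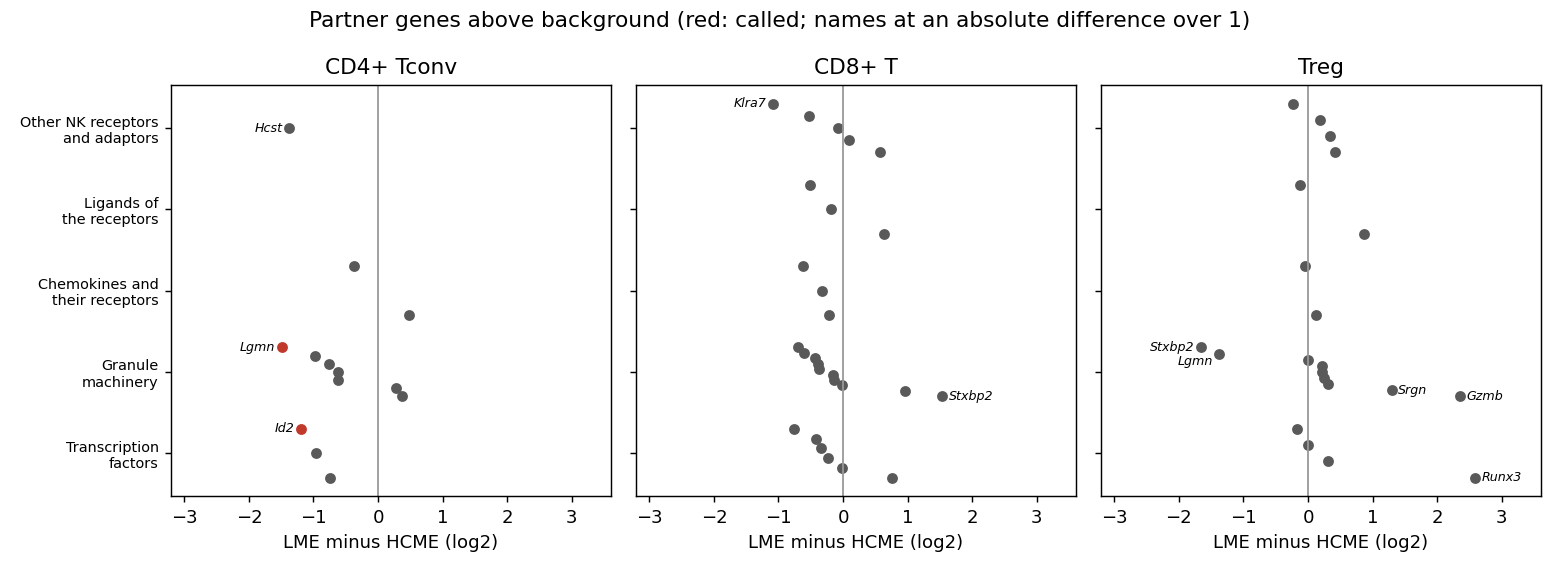
LME minus HCME in log2 signal (horizontal axis) of the partner genes above background, 1 point per gene, in 5 lists (rows) and 3 subsets (panels), with called genes in red. Lgmn at -1.49 and Id2 at -1.19 in CD4+ Tconv are the called ones as deposited, and the points farthest to the right are Gzmb and Runx3 in Treg at 2.35 and 2.58.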

How the data were processed

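Total RNA of sorted mouse T cells was labelled and hybridized to Clariom S arrays, 1 array per sample. The authors processed the scans with the Transcriptome Analysis Console and deposited log2 signals per probe set, which were used as deposited. The normalization, the genome build and whether the subsets were normalized together are not given in the sources used here, and the labels and the methods name different labelling kits. Arrays have no read depth, and their number limits the precision. Probe sets were named from the platform annotation (1 symbol for 19572, none for 2634, several for 0), with symbols checked by gene ID against a RefSeq table (GRCm38.p6). Of 22206 probe sets none was left out of a test, and 0 columns lacked a sample.

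Groups and replicate numbers came from the sample titles. LME minus HCME was fitted within each subset with limma 3.58.1 in R 4.3.3 (lmFit, eBayes), and differences between effects and between subsets as contrasts over 18 arrays. P-values were adjusted by Benjamini-Hochberg across every probe set. Calls needed an adjusted p below 0.05 and, except between effects, an absolute log2 difference above 1. A permutation test of 3 arrays against 3 cannot go below p = 0.1 and was not used. All 10 members were named, with up to 4 genes of each partner list (called ones first, then the largest differences among genes above background) and the 5 probe sets most correlated with Klrd1, Ccl5 and Xcl1. Other partner or marker genes, among them Srgn in CD4+ Tconv, Srgn, Hcst and H2-T23 in CD8+ T cells and Eomes, were added to these after their values were seen. The members and lists were chosen with earlier results of these data known. Bounds against background used the background line of the dimmer subset. The tests were tried on simulated data. Alternatives were other normalizations, filters, options of limma, the unpaired t-test, the replicate number as a block and leaving out each array. Some listed genes, Foxp3 among them, are not analysed here.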

Additional observations from a re-analysis of the deposited data

How the results depend on the processing

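None of the 10 genes was called for LME minus HCME or for a difference between effects under any alternative, which covers 468 and 480 values, of which 19 and 27 changed sign without a call. Within a subset the count of members called stayed at 0 with quantile normalization, cyclic loess, centring, a filter on dim probe sets and trend and robust options. It also stayed at 0 with array weights, all arrays in one fit, no fold threshold, the unpaired t-test and each array left out. The count over all probe sets in CD4+ Tconv, 225 as deposited, ranged over these from 0 to 475, and it was 30, 36 and 31 after quantile normalization, cyclic loess and centring. Leaving out CD4 HCME array 1 or 2 or LME array 1 brought it to 0. In Treg it was 26 with all arrays in one fit and otherwise 0.

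Same-numbered LME and HCME samples did not deviate together (correlations of -0.101 to 0.144). The check used groups of 3, so it cannot show whether the numbers pair the samples. With the replicate number as a block, 0 members were called in each subset, and the count over all probe sets in CD4+ Tconv was 2. Between subsets the block left 8, 5 and 10 members called for CD8 minus CD4, Treg minus CD4 and Treg minus CD8 (24%, 28.4% and 23.9% of all probe sets). Lgmn and Id2 in CD4+ Tconv had adjusted p of 0.0531 and 0.0599 with it.

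Of 300 values for levels between subsets, 281 kept their call, 14 lost it, 5 gained one and 0 reversed while called. Members called were 7 to 9 for CD8 minus CD4, 4 to 7 for Treg minus CD4 and 8 to 10 for Treg minus CD8, while the share over all probe sets ran from 18.4% to 55.6%, from 20.6% to 30.8% and from 15% to 32.6%. The highest share in the first and last was with centring above background, where 7 and 8 members were called. The alternatives for partner genes and for bounds between subsets were chosen after seeing the data. Ccl5 in Treg minus CD4, below background in both, accounted for 8 of the lost calls. Centring above background moved the median over all probe sets from 0.03 to -1.06 for CD8 minus CD4 and from -0.45 to 0.64 for Treg minus CD8, and quantile normalization moved it to 0.05 for the last. Klrd1 in CD8 minus CD4 (0.91), and Cst7 (-0.58) and Ccl4 (-0.24) in Treg minus CD8, then lost the fold threshold. Each member has 1 probe set, so a choice among probe sets could not be tried. Signals under the background line carry no order, which limits Klrg1 in every subset.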
